A study of Homo sapiens with 4 samples.

Results

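The genes of the hypoxia-inducible factor (HIF) oxygen-sensing core were examined in Ishikawa cells after knockdown of *CDYL*. They are the alpha subunit genes *HIF1A*, *EPAS1* and *HIF3A*, the beta subunit gene *ARNT*, *VHL*, the prolyl hydroxylase genes *EGLN1*, *EGLN2* and *EGLN3*, and the asparaginyl hydroxylase gene *HIF1AN*. These 9 genes were taken by symbol from the 58522 genes of the deposited table. The list of names was chosen with earlier results of these data known. All 9 were found, and 8 of them were among the 16158 genes kept by the filter on low counts and tested. Ishikawa is a human endometrial adenocarcinoma cell line used as a model of the endometrial epithelium. The control group was Ishikawa cells given a negative control shRNA (2 libraries), and the *CDYL*-sh group was the same line given an shRNA against *CDYL* (2 libraries). Both groups carried an shRNA plasmid with a puromycin resistance gene, and puromycin was used to select the cells. The hairpin in each *CDYL*-sh library is not given in the sources used here, nor is it given whether replicate libraries were made from separate cultures. The number in each *CDYL*-sh title could name a hairpin or a replicate, since the paper numbers its hairpins in the same way. It is called a replicate number below. The p-values therefore measure the spread between these libraries, which may be technical or, if the hairpins differed, may include a difference between hairpins. No oxygen level other than humidified air with added carbon dioxide is described for the cultures.

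HIF is a dimer of an alpha subunit and the beta subunit ARNT that binds DNA at hypoxia response elements. When oxygen is present, the prolyl hydroxylases (also called PHD enzymes, here the EGLN genes) hydroxylate the alpha subunit, VHL binds the hydroxylated protein within a ubiquitin ligase, and the proteasome degrades it. HIF1AN (factor inhibiting HIF, FIH) hydroxylates an asparagine of the alpha subunit and so blocks its contact with the coactivators p300 and CBP. This control acts largely on protein, which was not measured here, and the values below are transcript levels. *EGLN3* is itself a well known HIF target, and *EGLN1* is one in many cells.

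Promoters of the 3 members that were higher after knockdown are printed below, with that of *EGLN1*, a prolyl hydroxylase gene that did not pass the test, for comparison. Each is the 250 bases before the annotated start from RefSeq on GRCh38.p14, read along the strand of the gene, in lower case with the HIF core motif in capitals. The motif was searched as ACGTG and as GCGTG on both strands.
*HIF1A*, chr14:61695263-61695512, plus strand: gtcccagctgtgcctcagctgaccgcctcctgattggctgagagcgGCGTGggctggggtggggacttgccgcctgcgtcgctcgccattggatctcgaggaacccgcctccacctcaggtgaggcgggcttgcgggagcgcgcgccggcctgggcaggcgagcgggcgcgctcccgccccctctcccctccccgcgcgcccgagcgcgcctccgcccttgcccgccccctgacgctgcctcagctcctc
*EPAS1*, chr2:46297157-46297406, plus strand: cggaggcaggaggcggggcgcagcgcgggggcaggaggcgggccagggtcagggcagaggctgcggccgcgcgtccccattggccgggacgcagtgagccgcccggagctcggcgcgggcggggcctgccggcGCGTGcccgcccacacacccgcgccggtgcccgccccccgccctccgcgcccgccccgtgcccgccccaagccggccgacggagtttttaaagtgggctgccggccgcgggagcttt
*EGLN3*, chr14:33951075-33951324, minus strand: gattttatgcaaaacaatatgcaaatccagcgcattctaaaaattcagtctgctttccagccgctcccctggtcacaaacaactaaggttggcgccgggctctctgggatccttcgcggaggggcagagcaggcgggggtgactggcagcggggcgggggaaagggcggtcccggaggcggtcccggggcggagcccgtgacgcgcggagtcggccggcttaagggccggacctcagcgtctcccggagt
*EGLN1*, chr1:231422288-231422537, minus strand: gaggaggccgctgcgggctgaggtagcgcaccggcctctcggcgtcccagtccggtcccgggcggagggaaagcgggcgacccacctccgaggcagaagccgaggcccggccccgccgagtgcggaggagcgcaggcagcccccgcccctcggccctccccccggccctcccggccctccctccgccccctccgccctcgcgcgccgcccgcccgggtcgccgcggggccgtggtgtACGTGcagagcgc
*HIF1A* has 2 annotated starts in this table, of which the first is printed, and the window of the second held neither core. The printed *HIF1A* window held 1 GCGTG, which began 204 bases before the start, and the *EPAS1* window held 1 GCGTG that began 117 bases before it. The *EGLN1* window held 1 ACGTG that began 13 bases before the start. The *EGLN3* window held neither core. Of the 9 members, 8 had an entry in the RefSeq promoter table, with 12 annotated starts in all, and 5 of these starts had at least 1 core. The first start of *HIF3A* had 3 cores, and the first start of *EGLN2* had ACGTG on each strand, which overlap in 1 CACGTG. Among all 35116 windows of the same length, 43.2% held at least 1 core, 18.5% ACGTG and 32.2% GCGTG. These matches are a description of letters, not of binding.

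Total counts ran from 22341852 in *CDYL*-sh replicate 2 to 27688447 in control replicate 1, and 21263 to 21927 genes had a count. *CDYL* itself, a chromodomain corepressor gene, had 1405 and 1406 counts in control and 319 and 214 in *CDYL*-sh, a level of 20.4% of control (log2 fold change -2.28 ± 0.13, SE, n = 2 in each group). Levels are given below as FPKM, the authors' measure normalized for transcript length and library depth, and as CPM, which are counts scaled to the TMM-adjusted library size without regard to length. The 8 epithelial markers checked were all above a mean of 1 FPKM, with a summed level of 2386 to 2662 FPKM over the libraries. *PTPRC*, the defining marker of leukocytes, had 0 counts in each control library and 1 count in each *CDYL*-sh library (0.0357 and 0.0453 CPM). Counts this low cannot be told apart. The summed level of 6 immune markers was 5.29 and 7.9 FPKM in control and 13.97 and 11.65 FPKM in *CDYL*-sh, with 2 markers at 0 in all libraries, and the one kept by the filter was *CD68*, at 7.75 and 11.6 CPM in control and 20.6 and 18.1 CPM in *CDYL*-sh. The 5 endothelial markers summed to 0.67 and 0.83 FPKM in control and to 1.88 and 1.78 FPKM in *CDYL*-sh. Of these, *PECAM1* was the largest in each library, at 0.25 and 0.3 FPKM in control and 0.96 and 1.29 FPKM in *CDYL*-sh. *VWF* had 0.17 and 0.28 FPKM in control and 0.55 and 0.37 FPKM in *CDYL*-sh. *CDH5* went the other way by CPM, at 0.61 and 0.867 in control and 0.25 and 0.317 in *CDYL*-sh, while its FPKM overlapped. In the immune list *LYZ* was lower in *CDYL*-sh, at 0.359 and 0.678 CPM in control and 0.214 and 0.227 CPM in *CDYL*-sh. The 8 stromal markers summed to 7.06 and 6.83 FPKM in control and to 4.76 and 4.92 FPKM in *CDYL*-sh. In each library *CD68* made up most of the immune sum, and *COL1A1* with *COL1A2* most of the stromal sum. The part of these shifts in the values below was not tested. In bulk RNA, fewer cells that express a gene and less RNA of that gene per cell cannot be told apart.

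Transcript levels of the members spanned a wide range, with *EGLN2* the highest and *HIF3A* the lowest in all 4 libraries. Between genes they were compared by FPKM. In the control libraries the order of mean FPKM was *EGLN2* (63.4 ± 2.9, SD, n = 2), *VHL* (41.0 ± 2.2), *EGLN1* (24.9 ± 0.18), *HIF1A* (22.5 ± 4.5), *HIF1AN* (10.4 ± 1.8), *EPAS1* (8.28 ± 0.72), *ARNT* (5.02 ± 0.14), *EGLN3* (1.03 ± 0.21) and *HIF3A* (0.085 ± 0.05). Of the neighbours in that order, *EGLN1* and *HIF1A* overlapped, and the others did not. In the *CDYL*-sh libraries the order was *EGLN2* (71.6 ± 3.4), *HIF1A* (46.1 ± 4.8), *VHL* (26.7 ± 0.33), *EGLN1* (21.8 ± 0.62), *EPAS1* (11.98 ± 0.13), *HIF1AN* (10.7 ± 2.0), *ARNT* (4.5 ± 0.78), *EGLN3* (3.48 ± 1.1) and *HIF3A* (0.155 ± 0.035). There *EPAS1* overlapped with *HIF1AN*, and *ARNT* with *EGLN3*. The order depends in part on the transcript length used. By CPM per kilobase of the canonical transcript, *HIF1A* (mean 14.1) was above *EGLN1* (12.5) and *EPAS1* (7.36) above *HIF1AN* (6.02) in control, and *EPAS1* did not overlap with *HIF1AN*, nor *ARNT* with *EGLN3*, in *CDYL*-sh. On both scales *HIF1A* lay below *VHL* in both control libraries and above it in both *CDYL*-sh libraries.

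**Figure D1:**
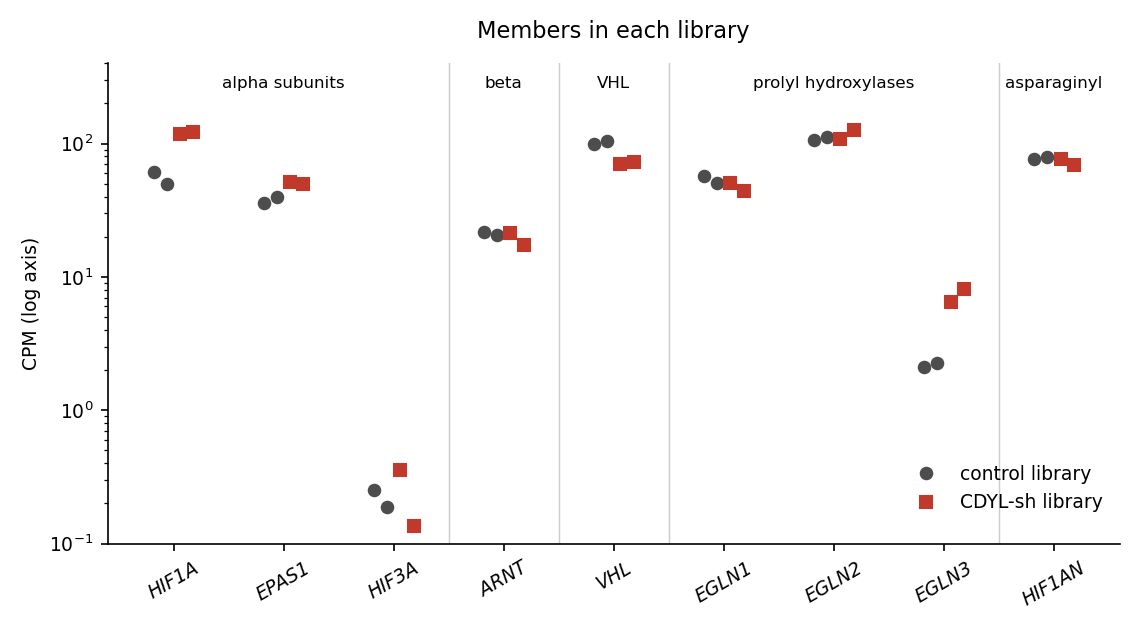
Level of each of the 9 members in each library, in CPM (counts scaled to the TMM-adjusted library size) on a log axis, with control libraries as grey circles and *CDYL*-sh libraries as red squares (2 of each). *HIF1A*, *EPAS1* and *EGLN3* have both red squares above both grey circles, *VHL*, *EGLN1* and *HIF1AN* have both below, although *EGLN1* and *HIF1AN* did not pass the test, and *HIF3A* stays below 0.4 CPM. With 2 against 2 libraries, such a separation alone cannot give a two-sided p below 0.3333 in an exact permutation test. The share of all genes separated in this way is not given here, so it is described for each gene only.

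*HIF1A*, *EPAS1* and *EGLN3* were higher after *CDYL* knockdown and *VHL* was lower, while *ARNT*, *EGLN1*, *EGLN2* and *HIF1AN* did not pass the test. That is 4 of the 8 members tested at an adjusted p under 0.05 in edgeR's quasi-likelihood test, 3 higher and 1 lower. Among all genes tested, 25.7% passed, 13.6% higher and 12.1% lower. The median log2 fold change was -0.003 over the 8 members and 0.011 over all genes tested. With 8 genes, chosen with earlier results of these data known, a share of this kind rests on few calls. The members are described singly below. Values per library are given in CPM for comparisons within a gene. Groups said not to overlap are only described so. With 2 against 2 libraries that alone cannot give a two-sided p below 0.3333 in an exact permutation test. The share of all genes without overlap is not given here.

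HIF1A and EPAS1 are alpha subunits whose proteins oxygen destabilizes, and the transcripts of both were higher after knockdown. *HIF1A* (ENSG00000100644, chromosome 14 from 61695513 to 61748259, plus strand of GRCh38) had 1715 and 1324 counts in control and 3327 and 2684 counts in *CDYL*-sh. On the CPM scale its level was 61.6 and 49.9 in control and 119 and 122 in *CDYL*-sh, so the groups did not overlap and the 2 *CDYL*-sh libraries were nearly equal. The log2 fold change was 1.11 ± 0.12 (SE, 95% interval 0.87 to 1.35), a fold of 2.16, with an adjusted p of 4.4e-06 in edgeR's quasi-likelihood test. *HIF1A* passed under all 17 alternatives, with log2 fold changes from 0.96 to 1.26. Its antisense transcripts *HIF1A-AS1* and *HIF1A-AS3* had 0 counts in each library, which allows up to 3 counts in a library.

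*EPAS1* (ENSG00000116016, chromosome 2 from 46293667 to 46386697, plus strand) encodes HIF-2 alpha, which shares many targets with HIF1A and has some of its own. It had 1001 and 1061 counts in control and 1432 and 1094 counts in *CDYL*-sh, or 35.9 and 40.0 CPM against 51.1 and 49.6 CPM. The *CDYL*-sh values both lay above those of control, by a margin smaller than that of *HIF1A*. This gave a log2 fold change of 0.41 ± 0.12 (SE, 95% interval 0.16 to 0.65), with an adjusted p of 0.0146 in edgeR's quasi-likelihood test. The direction held under all 17 alternatives and the call under 12 of them. Without *CDYL*-sh replicate 1 the log2 fold change was 0.37 (edgeR adjusted p = 0.102), without *CDYL*-sh replicate 2 it was 0.43 (edgeR adjusted p = 0.0639), and without control replicate 1 it was 0.32 (edgeR adjusted p = 0.112). The 2 other fits without the call used FPKM (limma adjusted p = 0.091 and 0.0974).

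*HIF3A* (ENSG00000124440, chromosome 19 from 46297042 to 46343433, plus strand) encodes an alpha subunit with isoforms that inhibit the other two. It had 7 and 5 counts in control and 10 and 3 counts in *CDYL*-sh. The groups overlapped on the CPM scale, with 0.251 and 0.188 in control and 0.357 and 0.136 in *CDYL*-sh. At this depth no difference could be measured, and the gene was left out of the test by the filter on low counts.

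*ARNT* (ENSG00000143437, chromosome 1 from 150809713 to 150876708, minus strand), the partner of every alpha subunit, had 609 and 544 counts in control and 599 and 386 counts in *CDYL*-sh. Its level was 21.9 and 20.5 CPM in control and 21.4 and 17.5 CPM in *CDYL*-sh. The groups overlapped, with *CDYL*-sh replicate 2 the lowest. A log2 fold change of -0.12 ± 0.14 (SE, 95% interval -0.42 to 0.18) did not pass (edgeR adjusted p = 0.571). The FPKM ratio of *HIF1A* to *ARNT* was 5.01 and 3.92 in control and 9.8 and 10.8 in *CDYL*-sh, with no overlap, although an exact permutation test of 2 against 2 libraries cannot give a two-sided p below 0.3333.

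*VHL* (ENSG00000134086, chromosome 3 from 10141778 to 10153667, plus strand) encodes the substrate-binding subunit of the ubiquitin ligase for hydroxylated HIF alpha, and its transcript was lower after knockdown. It had 2767 and 2758 counts in control and 1971 and 1612 counts in *CDYL*-sh. This gave 99.3 and 104 CPM in control and 70.4 and 73.0 CPM in *CDYL*-sh, a level of 70.6% of control. The groups did not overlap, and the spread within each was small beside the gap between them. The log2 fold change was -0.50 ± 0.10 (SE, 95% interval -0.72 to -0.28), with an adjusted p of 0.00178 in edgeR's quasi-likelihood test, and *VHL* passed under all 17 alternatives (-0.62 to -0.43). The FPKM ratio of *HIF1A* to *VHL* was 0.651 and 0.453 in control and 1.87 and 1.59 in *CDYL*-sh (exact permutation test, two-sided p = 0.3333, the smallest these libraries allow).

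**Figure D2:**
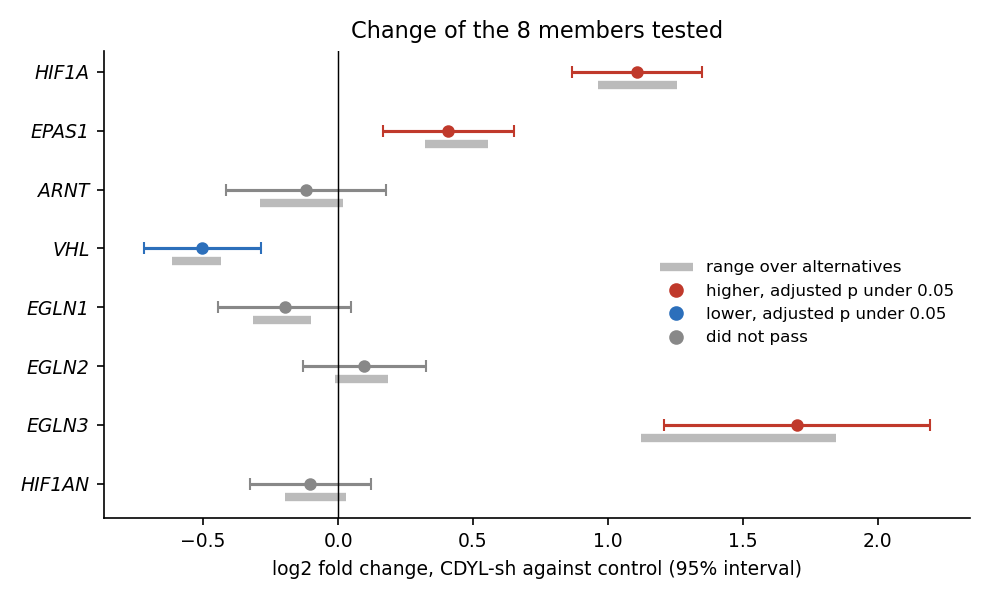
Log2 fold change of the 8 members tested, *CDYL*-sh against control (2 libraries each), with its 95% interval from edgeR's quasi-likelihood fit, and as a grey bar the range over the 17 alternatives. The intervals of *HIF1A* (0.87 to 1.35), *EPAS1* (0.16 to 0.65) and *EGLN3* (1.21 to 2.19) lie above 0, that of *VHL* (-0.72 to -0.28) lies below, and those of the other 4 members cross it.

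Among the prolyl hydroxylases the inducible *EGLN3* was higher after knockdown, and the more abundant *EGLN1* and *EGLN2* did not pass. *EGLN1* (ENSG00000135766, chromosome 1 from 231363751 to 231422287, minus strand) encodes PHD2, the main enzyme that sets HIF1A stability in most cells. It had 57.0 and 51.0 CPM in control and 50.2 and 43.9 CPM in *CDYL*-sh. The groups did not overlap, but control replicate 2 and *CDYL*-sh replicate 1 were close, and the log2 fold change of -0.20 ± 0.12 (SE, 95% interval -0.45 to 0.05) did not pass (edgeR adjusted p = 0.231). It was below 0 under all 17 alternatives and passed under none of them.

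*EGLN2* (ENSG00000269858, chromosome 19 from 40798996 to 40808434, plus strand) encodes PHD1. It had 106 and 113 CPM in control and 109 and 126 CPM in *CDYL*-sh, with groups that overlapped. Its log2 fold change was 0.10 ± 0.11 (SE, 95% interval -0.13 to 0.32) and did not pass (edgeR adjusted p = 0.551). *EGLN2* lies almost wholly within the readthrough gene *RAB4B-EGLN2*, to which the estimate gave 116, 137, 126 and 55.7 counts in the order control replicates 1 and 2 and *CDYL*-sh replicates 1 and 2, so the split of reads between both is uncertain. The sum of both was 111 and 118 CPM in control and 113 and 128 CPM in *CDYL*-sh, which overlapped as well.

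*EGLN3* (ENSG00000129521, minus strand of chromosome 14) encodes PHD3 and had 59 and 60 counts in control against 181 and 180 counts in *CDYL*-sh. Its level was 2.12 and 2.26 CPM in control and 6.46 and 8.16 CPM in *CDYL*-sh, so that each *CDYL*-sh library stood well above both control libraries. The log2 fold change was 1.70 ± 0.24 (SE, 95% interval 1.21 to 2.19), a fold of 3.25, with an adjusted p of 4.9e-05 in edgeR's quasi-likelihood test. *EGLN3* passed under 15 of the 17 alternatives, and lost the call with limma on log2(FPKM + 0.1) (1.64, adjusted p = 0.0612) and on log2(FPKM + 1) (1.12, adjusted p = 0.0658). In GENCODE release 44 the gene model runs from 33924227 to 34462774 and overlaps *SPTSSA* on the same strand. *SPTSSA* had 1566 and 1583 counts in control and 1168 and 874 in *CDYL*-sh, which is lower in *CDYL*-sh where *EGLN3* is higher, and the *EGLN3* counts were whole in all 4 libraries. The antisense transcript *EGLN3-AS1* had 0 counts in each library.

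*HIF1AN* (ENSG00000166135, chromosome 10 from 100529072 to 100559998, plus strand) had 77.0 and 78.6 CPM in control and 76.2 and 68.7 CPM in *CDYL*-sh. The control libraries and *CDYL*-sh replicate 1 were within a few CPM of each other, and *CDYL*-sh replicate 2 was lower. The log2 fold change was -0.10 ± 0.11 (SE, 95% interval -0.33 to 0.12), which did not pass (edgeR adjusted p = 0.518). Its FPKM values were ordered differently from its CPM, at 9.18 and 11.7 in control and 9.28 and 12.1 in *CDYL*-sh. The length that count and FPKM imply together was 8440 and 6600 bases in control and 8377 and 5618 bases in *CDYL*-sh, so the transcript length behind the FPKM differed between libraries for this gene. Its 5′ end overlaps *NDUFB8* on the opposite strand, a gene with 4234 to 4624 counts in each library, and although the methods mention an orientation mode in the alignment, whether reads were counted by strand is not given in the sources used here.

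The makeup of the alpha subunits and of the prolyl hydroxylases was compared by FPKM. The summed FPKM of the 3 alpha subunits was 33.5 and 28.1 in control and 61.8 and 54.7 in *CDYL*-sh. *HIF1A* made up 76.5% and 68.5% of that sum in control and 80.2% and 78.0% in *CDYL*-sh, a difference of 6.57 percentage points in the means (72.5 ± 5.6 against 79.1 ± 1.5, SD, n = 2). The *CDYL*-sh libraries lay above both control libraries, but the control replicates differed by more than the means did. With CPM divided by transcript length in place of FPKM, the mean shares were 65.4% and 75.6%. *HIF3A* was under 1% in each library.

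The summed FPKM of the 3 prolyl hydroxylases was 87.2 and 91.4 in control and 94.2 and 99.6 in *CDYL*-sh. By CPM per kilobase of the canonical transcript the groups overlapped, with sums of 64.6 and 66.3 in control and 65.6 and 73.1 in *CDYL*-sh. *EGLN2* was the most abundant in each library, at 70.3% to 74.3% of the FPKM sum. By FPKM *EGLN3* made up 1.01% and 1.29% in control and 2.9% and 4.24% in *CDYL*-sh, and the share of *EGLN1* was 28.6% and 27.0% against 23.6% and 21.5%. The FPKM ratio of *EGLN1* to *EGLN3* was 28.4 and 20.9 in control and 8.15 and 5.07 in *CDYL*-sh, and by CPM per kilobase of the canonical transcript it was 16.8 and 14.1 against 4.85 and 3.36. *EGLN3* was the least abundant of the 3 in each library. None of these shares or ratios can reach a two-sided p below 0.3333 in an exact permutation test of 2 against 2.

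**Figure D3:**
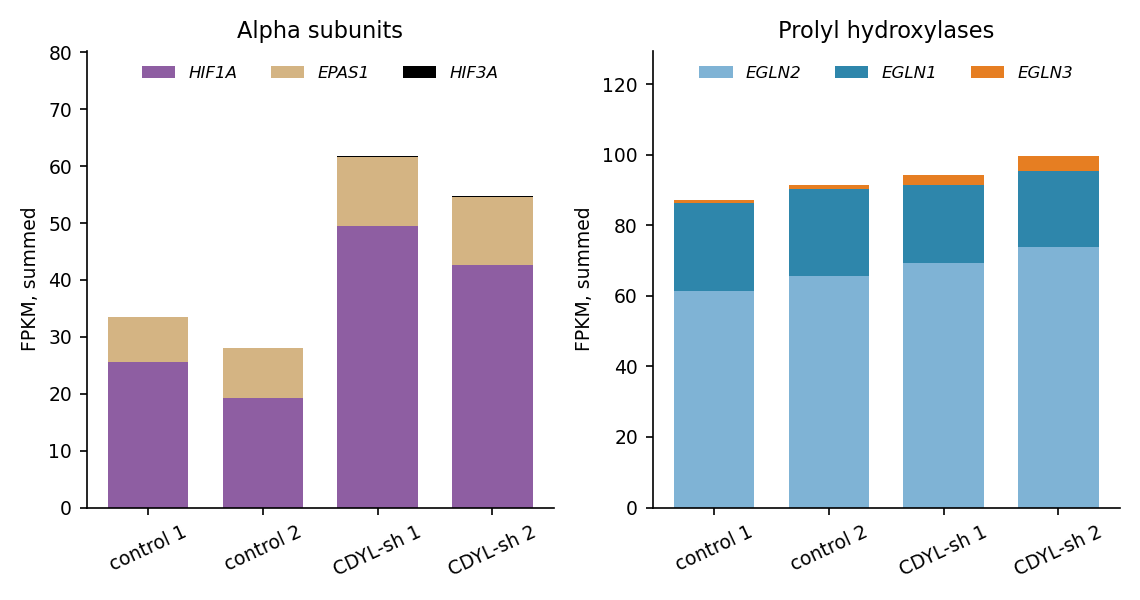
FPKM of the 3 alpha subunits (left) and of the 3 prolyl hydroxylases (right), stacked for each of the 4 libraries on axes that start at 0. The alpha subunit sum is 33.5 and 28.1 in control and 61.8 and 54.7 in *CDYL*-sh, while *EGLN3* is a thin top layer of the hydroxylases in each library.

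Base composition moved with the comparison across all genes, and its values are set beside the members here. The 1252 genes tested within 1 percentage point of the GC content of the canonical *HIF1A* transcript (39.4%) had a median log2 fold change of 0.18, and 23.7% of them were higher in *CDYL*-sh. When GC content and gene length were entered as offsets, *HIF1A* had a log2 fold change of 0.96 (edgeR adjusted p = 2.6e-06). The 1025 genes near *EPAS1* (52.6%) had a median of -0.10 with 6.05% higher, and with these offsets *EPAS1* had 0.56 (edgeR adjusted p = 4.3e-04). Near *VHL* and *EGLN3*, whose transcripts have almost the same GC content (46.3% each), the medians were -0.03 and -0.04. *EGLN3*, *VHL*, *ARNT*, *EGLN1* and *HIF1AN* all lay between 46.2% and 46.8% GC and spanned log2 fold changes from -0.50 to 1.70.

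**Figure D4:**
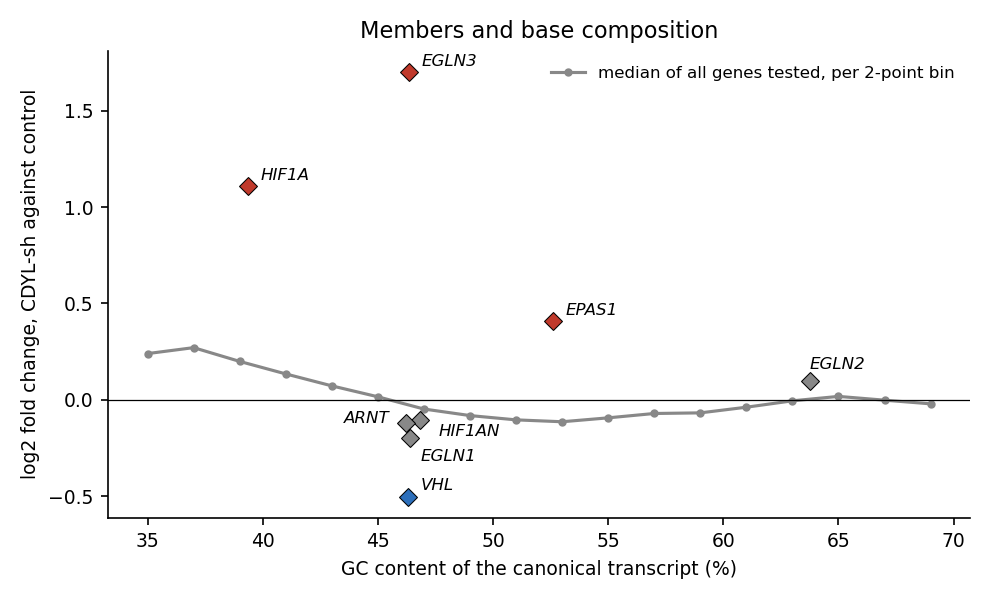
Log2 fold change (*CDYL*-sh against control) of the 8 members tested against the GC content of their canonical transcripts, with the median of all genes tested in bins of 2 percentage points as a grey line. The line falls from 0.27 in the bin at 37% to -0.11 at 53%, and *HIF1A* (1.11), *EGLN3* (1.70) and *EPAS1* (0.41) lie above it, *VHL* (-0.50) below it.

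The proteins that work with VHL form a cullin-RING ligase, in which elongins B and C (*ELOB*, *ELOC*) link VHL to the scaffold *CUL2* and the RING protein *RBX1*. Of 12 genes tested in the list of this ligase and its modifiers, 2 were higher, 1 was lower and 9 did not pass, with a median log2 fold change of 0.07. The share that passed, 25%, is close to the 25.7% of all genes tested. *CUL2* was higher, at 19.6 and 15.2 CPM in control and 27.0 and 32.9 CPM in *CDYL*-sh (0.78 ± 0.15, SE, edgeR adjusted p = 9.9e-04). *ELOB* was higher as well (0.39 ± 0.13, edgeR adjusted p = 0.03), while *ELOC* (0.18), *RBX1* (0.13) and *NEDD8*, the ubiquitin-like protein that activates the cullin (0.29), did not pass. *OTUD7B*, a deubiquitinase gene, was lower (-0.52 ± 0.13, edgeR adjusted p = 0.00556). The call of *OTUD7B* was lost without *CDYL*-sh replicate 2 (-0.44), and that of *ELOB* without *CDYL*-sh replicate 2 (0.27) and without control replicate 1 (0.20), while that of *NEDD8* was gained without control replicate 2 (0.48), with the GC and length offsets (0.32) and with at least 10 counts in every library (0.29).

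ARNT belongs to the bHLH-PAS transcription factors, which share its dimerization domain. Of 14 tested genes of this family and its coactivators, 3 were higher, 2 lower and 9 did not pass (median 0.17). The share that passed was 35.7%, beside 25.7% of all genes tested. The circadian partners *CLOCK* (0.73 ± 0.21, edgeR adjusted p = 0.0144) and *BMAL1* (0.66 ± 0.20, edgeR adjusted p = 0.0179) were higher, as was the coactivator *NCOA3* (0.71 ± 0.13, edgeR adjusted p = 7.6e-04). *NPAS3* was lower (-0.71 ± 0.20, edgeR adjusted p = 0.0144). Of these, the call of *NCOA3* held with each library left out in turn. *CLOCK* lost it without *CDYL*-sh replicate 1 (0.66), without control replicate 2 (0.44) and with the GC and length offsets (0.43), *BMAL1* without *CDYL*-sh replicate 1 (0.52), and *NPAS3* without *CDYL*-sh replicate 2 (-0.70) and without control replicate 1 (-0.48).

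Of 15 tested HIF cofactors and regulators, 3 were higher, 3 lower and 9 did not pass (median 0.02). The share that passed was 40%, beside 25.7% of all genes tested. The histone acetyltransferases *CREBBP* (CBP) and *EP300* (p300), coactivators that HIF alpha recruits, were both lower. *CREBBP* had 69.0 and 61.4 CPM in control and 48.6 and 41.3 CPM in *CDYL*-sh (-0.53 ± 0.12, edgeR adjusted p = 0.00299), and *EP300* had 135 and 121 CPM against 100.3 and 78.7 CPM (-0.51 ± 0.12, edgeR adjusted p = 0.00439). *HSP90AA1*, a chaperone that protects HIF1A from degradation, was higher, at 353 and 269 CPM in control and 502 and 524 CPM in *CDYL*-sh (0.72 ± 0.12, edgeR adjusted p = 3.9e-04). The more abundant HSP90 gene *HSP90AB1* did not pass (0.13 ± 0.12, edgeR adjusted p = 0.445). Its groups overlapped, at 1525 and 1332 CPM in control and 1633 and 1495 CPM in *CDYL*-sh. *ING4* was higher (0.96 ± 0.16, edgeR adjusted p = 3.0e-04), and *RUVBL1* was lower (-0.50 ± 0.10, edgeR adjusted p = 0.00175). Without *CDYL*-sh replicate 2, *CREBBP* (-0.42) and *EP300* (-0.34) no longer passed, and *EP300* did not pass without control replicate 1 either (-0.44).

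EGLN and HIF1AN enzymes are 2-oxoglutarate-dependent dioxygenases, a class that needs oxygen and iron. Among 28 other oxygen-dependent dioxygenases tested, 8 were higher, 5 lower and 15 did not pass (median 0.17). The share that passed was 46.4%, beside 25.7% of all genes tested. The higher genes included *ASPH*, an aspartate and asparagine hydroxylase, at 92.7 and 86.6 CPM in control and 145 and 155 CPM in *CDYL*-sh (0.74 ± 0.10, edgeR adjusted p = 6.5e-05). *PLOD2*, a collagen lysyl hydroxylase (0.82 ± 0.14, edgeR adjusted p = 2.9e-04), and *KDM3A*, a histone lysine demethylase (0.68 ± 0.16, edgeR adjusted p = 0.00428), were higher too. The lower genes included *TET3*, a 5-methylcytosine dioxygenase (-0.69 ± 0.11, edgeR adjusted p = 2.6e-04), and *ADO*, a thiol dioxygenase that senses oxygen (-0.68 ± 0.14, edgeR adjusted p = 0.00197). *P4HTM*, a transmembrane prolyl hydroxylase, was lower with 57.2 and 59.2 CPM in control and 43.3 and 43.6 CPM in *CDYL*-sh (-0.42 ± 0.11, edgeR adjusted p = 0.00888). *P4HTM* (-0.42) and *KDM3A* (0.55) did not pass without *CDYL*-sh replicate 2.

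Over all of these partner and enzyme lists, 27 of 69 genes tested passed, 16 higher and 11 lower. That is 39.1% beside 25.7% of all genes tested, over lists chosen with earlier results of these data known. Without *CDYL*-sh replicate 2 the count was 14, and that of all genes fell from 4157 to 2082.

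Of 45 tested HIF target genes, 21 were higher, 4 lower and 20 did not pass, with a median log2 fold change of 0.35. The higher genes made up 46.7% of those tested, beside 13.6% of all genes, and the lower genes 8.89%, beside 12.1%. This list was chosen with earlier results of these data known, so its shares and median are a description and not a test. *NDRG1* (2.09 ± 0.16, edgeR adjusted p = 1.8e-07), *NDUFA4L2* (2.51 ± 0.21, edgeR adjusted p = 2.9e-07), *CA9* and *BHLHE41* (1.31 ± 0.15, edgeR adjusted p = 8.4e-06) had the lowest adjusted p-values, in that order. *CA9*, a membrane carbonic anhydrase often used as a marker of HIF activity, had 0.179 and 0.527 CPM in control and 4.46 and 4.76 CPM in *CDYL*-sh (3.46 ± 0.44, edgeR adjusted p = 5.8e-06). Its log2 fold change was 2.94 without control replicate 1 and 4.19 without control replicate 2. The 2 most abundant targets that did not pass were the glucose transporter gene *SLC2A1*, at 953 and 928 CPM in control and 857 and 807 CPM in *CDYL*-sh (-0.18 ± 0.11, edgeR adjusted p = 0.25), and the lactate dehydrogenase gene *LDHA* (-0.13 ± 0.11, edgeR adjusted p = 0.39).

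**Figure D5:**
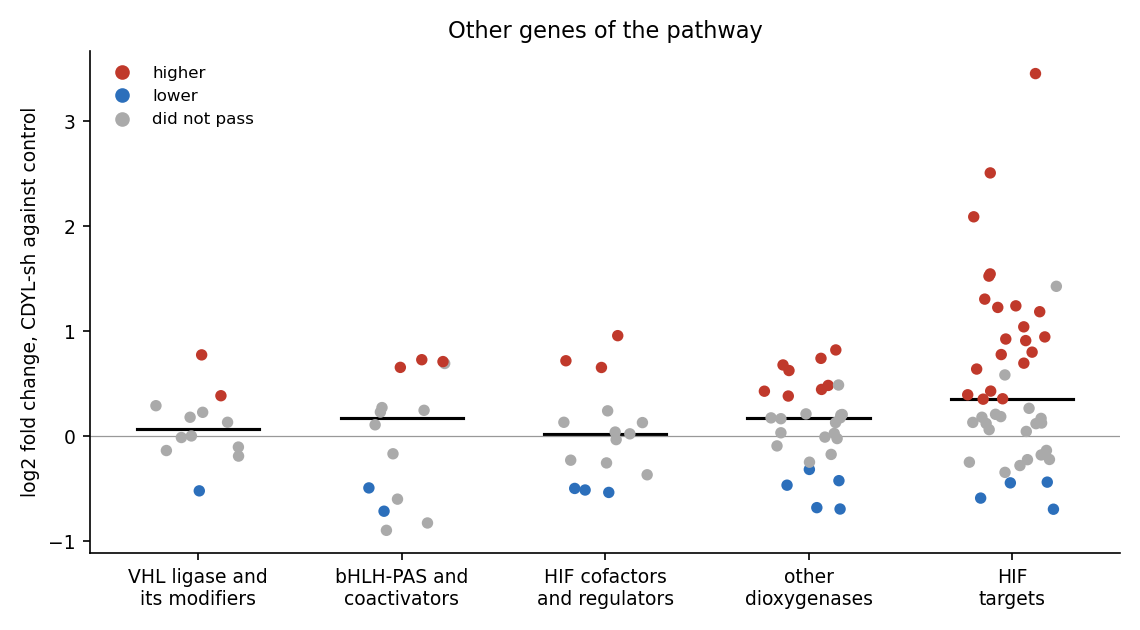
Log2 fold change (*CDYL*-sh against control) of every gene tested in 5 lists of the pathway, 1 point per gene, in red where higher and blue where lower at an adjusted p under 0.05 and grey where it did not pass, with a black line at the median of each list. The HIF target list has the highest median (0.35) and reaches 3.46 at *CA9*, while the 4 other medians lie from 0.02 to 0.17. All of these lists were chosen with earlier results of these data known.

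The genes most like *HIF1A* and *EGLN3* over the 4 libraries were sought among 11079 genes with a symbol and a mean of at least 5 CPM, by the root mean square distance between centred log2 CPM values. Nearest to *HIF1A* were *STON2* (distance 0.0183), *KTN1* (0.0217) and *PGM3* (0.0288), with log2 fold changes of 1.08, 1.08 and 1.17. *KTN1* had 64.6 and 51.0 CPM in control and 119 and 125 CPM in *CDYL*-sh, with the same lower value in control replicate 2 as *HIF1A*. Nearest to *EGLN3* were *FBXL16* (0.0293), *PDK4* (0.0293) and *PDZD7* (0.0499). *PDK4* had 8.44 and 9.27 CPM in control and 22.9 and 28.7 CPM in *CDYL*-sh. A likeness over 4 libraries is a description of these profiles, which in the main share the difference between the groups.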

How the data were processed

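RNA-seq was done on 2 control and 2 *CDYL*-sh libraries of Ishikawa cells. Per the paper's methods, the authors used the TruSeq RNA kit, a HiSeq instrument and paired-end reads, and used TopHat to align them to GRCh38.p10. RSEM and edgeR are further tools named in the submitters' processing notes, and the annotation release is not given in the sources used here. The deposited table holds expected counts, which are estimated reads per gene that need not be whole and are not normalized. The authors also deposited FPKM, normalized for length and depth.

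Expected counts were rounded, filtered with filterByExpr and scaled by TMM. *CDYL*-sh was compared with control in 1 fit over all genes, without further terms, by the quasi-likelihood test of edgeR (edgeR 4.0.16, R 4.3.3, original deviance, prior count 2). Adjusted p-values are Benjamini-Hochberg over all genes tested, with a threshold of 0.05. The standard error (SE) and 95% interval are those of the log2 fold change. CPM were counts over TMM-scaled library sizes. The test was also run on simulated counts that had the same dispersion for all genes. That run cannot show how the test handles spread that differs between genes, and nothing here rests on it. Symbols, positions and GC content came from gene tables and GENCODE release 44 on GRCh38, for the Ensembl canonical transcript, and promoters from RefSeq on GRCh38.p14. The limit at 0 counts covers counting error only.

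The members and lists were chosen with earlier results of these data known. The named genes are all 9 members, *CDYL*, up to 4 genes of each list with the lowest adjusted p, and up to 2 abundant genes that did not pass. *RBX1*, *EP300*, *P4HTM*, *KDM3A* and *HSP90AB1*, and the markers named, were chosen after their values were seen. Of 159 symbols in the lists, 158 were found. The likeness rule took 3 genes for each of the 2 members with the lowest adjusted p.

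The 17 alternatives were RLE, upper quartile or library size only in place of TMM, no filter, a minimum of 10 counts per library, limma-voom, DESeq2, limma on log2(FPKM + 1) and log2(FPKM + 0.1) for genes whose mean FPKM reached 0.5, counts not rounded, the replicate number as a block, offsets for GC content and length, each library left out, and the bias-adjusted deviance of edgeR, which was added after seeing the data. Where 1 library was left out, the remaining one of that group was taken to have the spread of the other group.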

Additional observations from a re-analysis of the deposited data

How the results depend on the processing

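With limma on log2(FPKM + 0.1) and on log2(FPKM + 1), the members past the threshold fell from 4 to 2 in both fits, the partner genes from 27 to 2 and 3, the HIF targets from 25 to 9 in both, and all genes from 4157 to 507 and 461. In those fits *EPAS1* had 0.53 and 0.49 and *EGLN3* had 1.64 and 1.12 with neither past the threshold, and *HIF1AN* turned to 0.029 and 0.027. With 1 library left out, the counts ran from 3 to 4 members, 14 to 28 partner genes, 19 to 25 targets and 2082 to 4006 genes, the lowest of each of the last 3 without *CDYL*-sh replicate 2. Over the same fits *EPAS1* ran from 0.32 to 0.49, *ARNT* from -0.29 to 0.017 and *EGLN2* from -0.011 to 0.18, and both of these reversals came without *CDYL*-sh replicate 2. With offsets for GC content and length *ELOC* turned to -0.027. By CPM per kilobase the share of *HIF1A* among alpha subunits was 65.4% in control and 75.6% in *CDYL*-sh. The values of 28 other named genes were followed over the alternatives, *CDYL* included and *HSP90AB1* left out. Of these values, 424 kept direction and side of the threshold, 45 lost the threshold, 5 gained it and 1 reversed. The cause of these shifts was not tested.

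A replicate block gave 4 members, 33 partner genes, 31 targets and 5393 genes in all. With it *NEDD8* (0.30, edgeR adjusted p = 0.00536) and *SLC2A1* (-0.18, edgeR adjusted p = 0.04) also passed. The labels give same-numbered libraries no shared culture or day, and their deviations correlated at 0.03 over 2 pairs. The transcript lengths that *EGLN1*, *EGLN3* and *HIF1AN* imply were closer within a number than within a group, while over 6371 genes the length differences between numbers correlated at -0.02 between the groups. Levels near that of *HIF3A* are limited by depth.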
